A study of Mus musculus with 4 samples.

Results

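Translation initiation and elongation factors were read on Affymetrix arrays of the mouse genome, which report the level of a transcript through 1 or more probe sets. They were chosen by gene symbol, as the probe sets whose symbol begins with Eif1 to Eif6 or with Eef1 or Eef2, leaving out the eIF2 kinases (Eif2ak) and the sex-linked Eif2s3x and Eif2s3y. The rule used no measured value. It took 140 of 45037 probe sets, which name 52 of 18193 genes, together with 3 probe sets that carry the symbols of both Eif3j1 and Eif3j2 and are counted without standing for a gene. Probe sets with a mean under log2 5.08, the 40th percentile of all means, were not tested. 125 probe sets and 51 genes passed, and the gene left out was Eif4a3, whose probe set lay between 4.20 and 4.52 on the 4 arrays.

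The cells were bronchoalveolar stem cells (BASCs), sorted from the lungs of ICR mice aged 4 to 6 weeks by the surface markers Sca-1 and CD34, in the absence of CD31 and CD45, and plated on irradiated embryonic fibroblasts. Established cells were later kept on dishes coated with collagen according to the paper's results, but passaged onto embryonic fibroblasts according to its methods. Which of these held for the arrayed cells is not stated. The 2 arrays labelled control and the 2 labelled Myc-depleted are separate samples of each group. The paper depleted c-Myc with lentiviral short hairpin RNAs of 2 sequences and made stable lines by puromycin selection. It does not say which hairpin or line the arrays used, and it calls the array controls wild type. An effect of virus or selection was not tested. The labels are silent on whether the control cells carried a control virus or were selected. They are also silent on whether each array had its own culture, so the p-values given here reflect the spread between these samples alone, which may be technical.

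Translation begins when the small ribosomal subunit, loaded with initiator tRNA by eIF2 and held by eIF1, eIF1A, eIF3 and eIF5, is brought to the capped end of an mRNA by the eIF4 group and scans to a start codon. eIF2B recharges eIF2 with GTP, eIF5B joins the large subunit, eEF1 brings each aminoacyl-tRNA and eEF2 moves the ribosome along. Genes of protein synthesis, eIF4E among them, are well-known targets of Myc in growing cells, and Myc binds DNA with its partner Max at the E-box CACGTG.

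That hexamer, which reads the same on both strands, was searched in the RefSeq promoter windows of mouse build GRCm38.p6 (300 bases, from 250 before to 50 after an annotated start). Windows were matched by symbol for 41 of the 52 genes, and 12 of these 41 (29.3%) held it in at least 1 window, against 8.09% of 27025 genes with a window. Among tested genes it was found in 12 of 40 members and in 11.5% of 10187 genes. A match is a description of letters and not a binding site. The following 30-base stretches, all upstream of a start and written on the strand of the gene, show the hexamer in capitals in the cap-binding protein gene Eif4e, the helicase gene Eif4a1, the hypusine-carrying factor gene Eif5a and the start codon factor gene Eif1b, which had negative differences between Myc-depleted and control cells in the values below, and in Eef2 and Eif3f, which had positive ones.

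Eif4e, distal (chr3:138527028-138527057, plus strand): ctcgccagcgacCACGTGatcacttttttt
Eif4e, proximal (chr3:138527192-138527221, plus strand): ggacacgtccgtCACGTGggcaggagccgg
Eif4a1 (chr11:69672595-69672624, minus strand): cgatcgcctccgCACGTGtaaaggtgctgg
Eif5a, upstream start (chr11:69921443-69921472, minus strand): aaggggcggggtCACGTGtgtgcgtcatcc
Eif5a, downstream start (chr11:69920791-69920820, minus strand): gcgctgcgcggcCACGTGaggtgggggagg
Eif1b (chr9:120492570-120492599, plus strand): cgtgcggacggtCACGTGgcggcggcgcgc
Eef2 (chr10:81176576-81176605, plus strand): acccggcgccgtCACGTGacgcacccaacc
Eif3f (chr7:108934335-108934364, plus strand): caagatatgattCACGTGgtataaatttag

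The other genes with the hexamer were Eif3k, Eif4h, Eif5a2, Eef2k, Eef1aknmt and Eif3a, the last of them within the 50 bases after its start. The 12 genes with it had a median log2 difference of -0.054 (6 of 12 negative, from -0.39 to 0.23), and the 28 tested members without it had a median of -0.13 (20 of 28 negative). Over all tested genes the medians with and without it were 0.026 and 0.024. Members with the hexamer were therefore not lower than members without it, as a description with no test.

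Each difference below is the mean of the depleted arrays less that of the controls, on a log2 scale, and a gene is read from the brightest of its tested probe sets. Myc itself, read by 1 probe set, was at 9.21 and 9.69 on the control arrays and 8.354 and 8.503 on the Myc-depleted arrays, a difference of -1.02 (SE 0.21, unadjusted p = 0.0076 and adjusted p = 0.36 in limma). Both depleted arrays lay below both controls, at 49.2% of the control level. Array quality did not follow the groups. The difference between 3′ and 5′ probe sets of the poly-A spike-ins was 1.89 on control 1 and 1.78 on Myc-depleted 2 but 3.12 on control 2 and 3.64 on Myc-depleted 1, so values are also given between the arrays of like spike-in value. Those arrays correlated at 0.984 and 0.983 across probe sets, against 0.986 between the controls and 0.967 between the depleted arrays. Of 11 sort and lung epithelial markers with a probe set, 8 lay under the low-value threshold, including Cd34, Sftpc, Scgb1a1, Cdh1 and Nkx2-1, with values between 3.66 and 5.21, and the summed log2 level of the list was 8.60 to 8.61 in control and 8.83 to 8.90 in Myc-depleted cells. The epithelial adhesion gene Epcam was the only one of this list with an unadjusted p under 0.05 in limma, at 6.89 and 7.12 against 7.80 and 7.52. Sftpb and Aqp5 were the other 2 above the threshold, and Sca-1 (Ly6a), a positive marker of the sort, had no probe set of its own and was not analysed here. Of 11 fibroblast markers 10 lay above it, 3 of them higher and 1 lower at an unadjusted p under 0.05, at a summed log2 level of 16.4 to 16.5 in control and 16.3 to 16.6 in depleted cells. In the blood and endothelial list Pecam1, Cdh5 and Ptprc lay under the threshold, the summed level was 8.07 to 8.08 in control and 8.15 to 8.71 in depleted cells, and the macrophage lysozyme Lyz2 was at 7.71 on Myc-depleted 2 against 5.27 to 5.88 on the other arrays. The 3′ minus 5′ difference of the Gapdh and Actb controls was 0.24 on control 1 and 0.83 on control 2. It was 1.41 on Myc-depleted 1 and 0.29 on Myc-depleted 2. A fit with a spike-in covariate is given further on. The part of the cell type markers and of RNA quality in the values below was not tested. In bulk samples fewer cells of a type and less RNA per cell cannot be told apart, and normalization to a common distribution leaves a change in total RNA per cell out of view.

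Read from the brightest probe set of each gene, the translation factors were on balance slightly lower in Myc-depleted cells, by far less than 2-fold. None of them passed the test. Over all tested probe sets of the members, differences reached from -0.97 to 0.41. Of the 51 genes, 34 had a negative difference, where 46.0% of all 12589 genes tested did, and the median was -0.11 (quartiles -0.21 and 0.047), or 92.4% of the control level, where the median of all genes was 0.022. Both depleted arrays lay below both controls for 19 of the 51 genes (37.3%), against 20.8% of all genes, and above both for 8 (15.7%), against 26.6%. Members were brighter, with a median control level of 11.0 against 8.12 for all genes tested, and no share given here was matched for level. The largest differences were -0.41 for Eif2b3 and 0.41 for Eif4e3, a factor of 1.33, so that 0 of 51 differed by over 2-fold, where 1.79% of all genes did, and 40 of 51 genes lay within 0.25 of 0, as 68.4% of all genes did. In limma 0 of 51 genes had an adjusted p under 0.05 (smallest adjusted p = 0.52), where 0.0% of all genes did. At an unadjusted p under 0.05, 0 members were lower, where 5.23% of all genes were, and 0 were higher, where 6.96% were. The methods' ANOVA also gave 0 after adjustment, and at an unadjusted p under 0.05 it called 3 members lower, where it called 4.84% of all genes, and 1 higher, where it called 6.59%. Half-widths of the 95% intervals had a median of 0.37, so that for a typical member a change of this size in either direction was not resolved by 2 arrays per group.

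**Figure D1:**
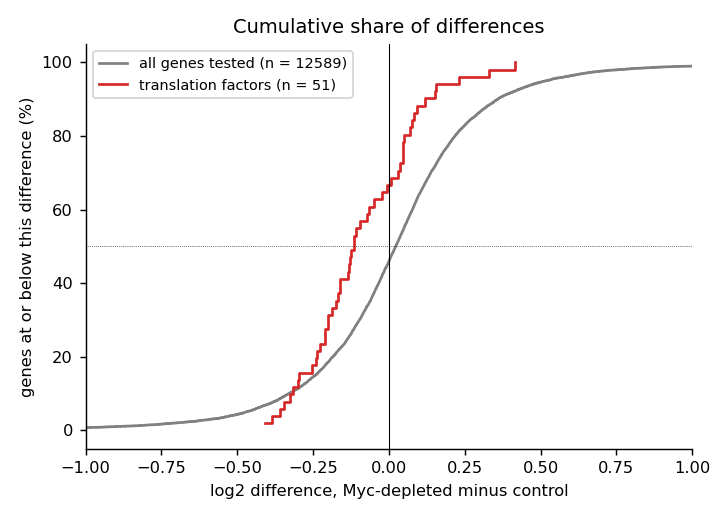
Cumulative percent of genes (vertical axis) at or below a log2 difference, Myc-depleted minus control (horizontal axis, from -1 to 1), for the 51 translation factors (red) and all 12589 genes tested (grey). The red line crosses 50% at -0.11 and the grey line at 0.022, and no translation factor lies outside -0.41 to 0.41. Each gene is read from its brightest tested probe set.

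The median was negative between each depleted and each control array, but medians within a group were of a similar size. For the same 51 genes the median of control 2 minus control 1 was 0.062 and that of Myc-depleted 1 minus Myc-depleted 2 was -0.027. Medians of the 51 differences were -0.049 between Myc-depleted 2 and control 1, the arrays of low spike-in difference, and -0.13 between Myc-depleted 1 and control 2, those of high spike-in difference. With the other pairing they were -0.081 for the arrays numbered 1 and -0.083 for those numbered 2. In both pairs of like spike-in value 32 genes were lower (62.7%, against 31.7% of all genes) and 10 were higher (19.6%, against 38.7%), and 9 had opposite signs in these pairs. The difference exceeded the larger gap between arrays of 1 group for 21 genes (41.2%, against 35.5% of all genes) and was within it for 30.

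**Figure D2:**
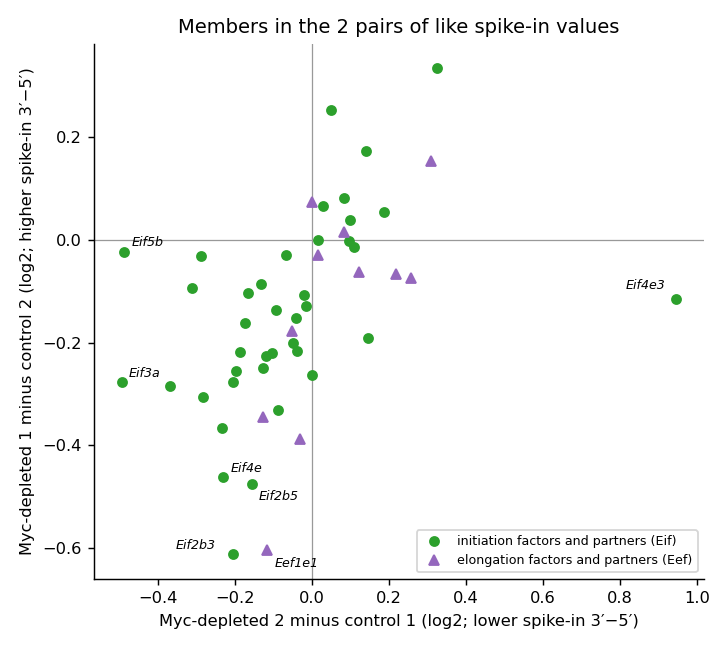
Log2 difference of each of the 51 translation factors between Myc-depleted 2 and control 1 (horizontal axis) and between Myc-depleted 1 and control 2 (vertical axis), green circles for initiation factors and partners (Eif) and purple triangles for elongation factors and partners (Eef). The lower left quadrant holds 32 genes and the upper right 10, and Eif4e3 lies apart at 0.95 and -0.12.

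By role, negative values prevailed in the genes grouped under start site selection, eIF2 with its delivery partners, and eIF2B. They also did in the subunit joining and late factors (4 of 5, median -0.20), while the Eef genes were spread around 0. Of the 40 tested Eif genes 29 were negative with a median of -0.13, and of the 11 Eef genes 5 were negative with a median of 0.029. The Eef genes include 5 enzymes that modify elongation factors. The difference between these sets was not tested.

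**Figure D3:**
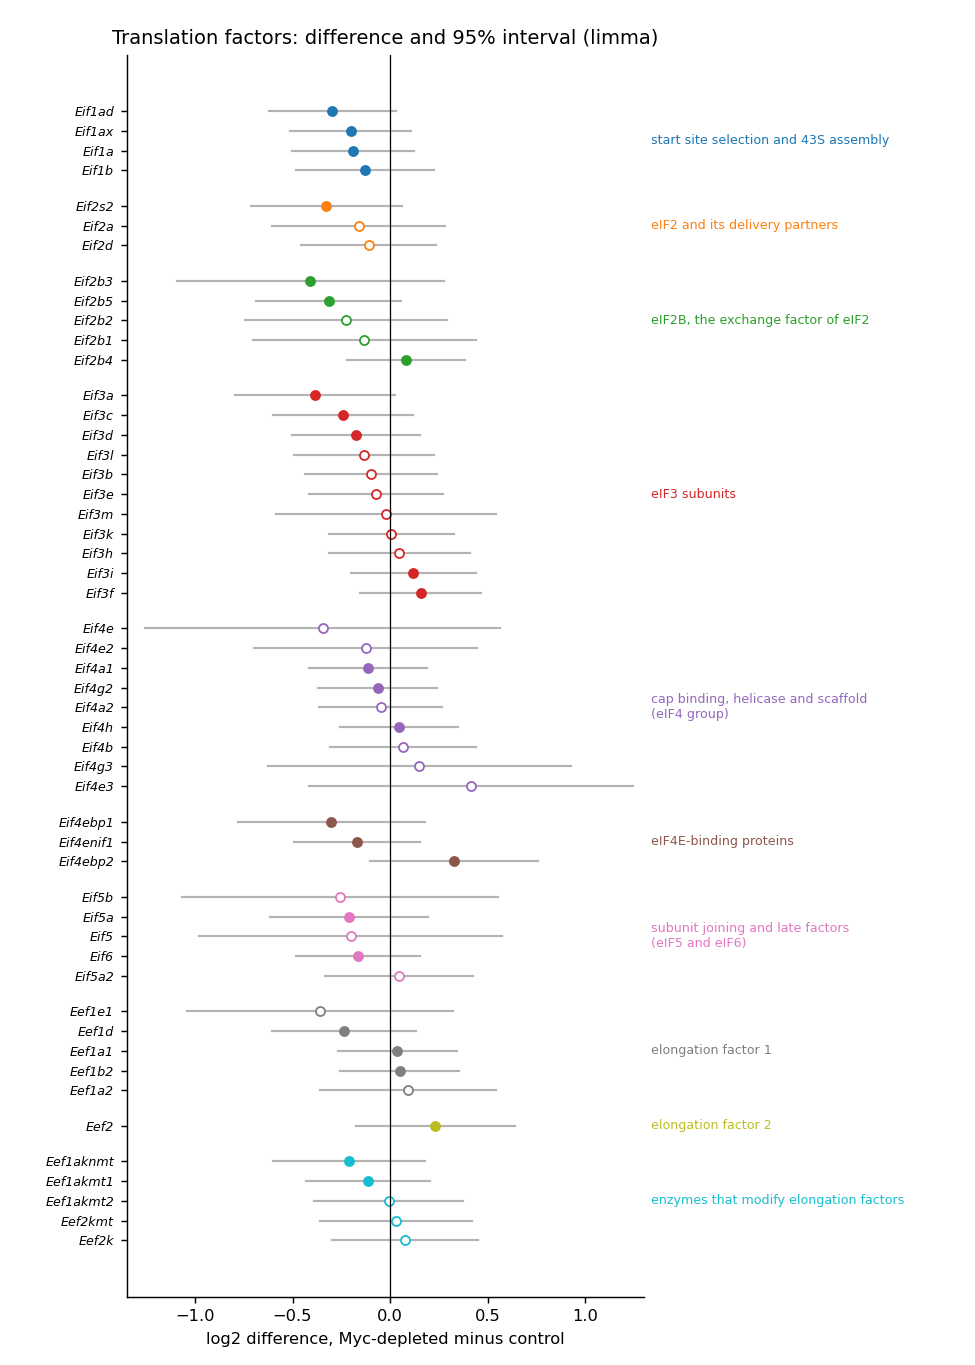
Log2 difference, Myc-depleted minus control, of the 51 translation factors (points) with the 95% interval from limma (grey lines), grouped and coloured by role, filled where the 2 groups do not overlap. All intervals include 0, and all 4 genes grouped under start site selection and the 3 of eIF2 and its delivery partners lie to the left of 0.

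The 4 genes grouped under start site selection were each lower on both depleted arrays than on both controls. Of all genes tested 20.8% were so, and 4 genes are too few to read against that share. Eif1ad was placed in this group by its symbol, and no part of it in start site selection is claimed. Eif1ad, named for its eIF1A-like domain, was at 9.49 and 9.42 in control and 9.11 and 9.21 in depleted cells, a difference of -0.30 (SE 0.12, adjusted p = 0.53 in limma). Eif1ax, the X-linked gene of the scanning factor eIF1A, was at 12.15 and 12.23 against 12.01 and 11.97. Its paralog Eif1a was at 11.57 and 11.64 against 11.39 and 11.44. Their differences of -0.20 and -0.19 were alike and the groups did not overlap, but these 2 genes are close in sequence, so their signals may share labelled RNA, and the other 2 probe sets of Eif1ax differed by 0.058 and 0.21. Eif1b, a paralog of the start codon factor eIF1, was at 10.04 and 10.23 against 10.010 and 9.9995, a difference of -0.13. Eif1 is not analysed here.

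Of the 8 genes of eIF2, its delivery partners and its recharging factor eIF2B, 7 had a negative difference. Only Eif2s2 among them encodes a subunit of eIF2 itself. Eif2s2, the beta subunit of eIF2, was at 13.11 and 13.24 in control and 12.96 and 12.74 in depleted cells (difference -0.33, SE 0.14, adjusted p = 0.55 in limma). A further probe set of this gene was at 12.67 and 12.78 against 12.39 and 12.37, and all 6 of its tested probe sets were negative, from -0.35 to -0.044. Eif2a, a separate tRNA-binding factor that is not the alpha subunit of eIF2, differed by -0.16, and Eif2d, another non-canonical tRNA carrier, by -0.11; for both the groups overlapped. Eif2b5, the catalytic subunit of eIF2B, was at 9.83 and 10.01 against 9.54 and 9.68 (-0.31, SE 0.13, adjusted p = 0.55 in limma). Eif2b3, of the same catalytic part, was at 9.59 and 9.40 against 8.79 and 9.39. Its difference of -0.41 rests mainly on Myc-depleted 1, since Myc-depleted 2 lay just under the lower control. Of the regulatory subunits Eif2b2, at 10.47 and 10.19 against 9.94 and 10.27, differed by -0.23 and Eif2b1 by -0.13, with overlapping groups. Eif2b4, at 8.90 on each control array and 8.98 on each depleted array, was 0.083 higher.

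The 11 tested subunits of eIF3, the scaffold that holds the small subunit, did not move as one. Eif3a, its largest subunit, was at 12.82 and 12.88 in control and 12.60 and 12.32 in depleted cells (-0.39, SE 0.15), and had the smallest p of all members (unadjusted p = 0.060, adjusted p = 0.52 in limma). Eif3c, a core subunit, was at 12.35 and 12.52 against 12.24 and 12.14 (-0.24, SE 0.13), and all 4 of its tested probe sets were negative. Eif3d, which can itself contact the cap, differed by -0.17 with groups that did not overlap. Eif3f was higher, at 12.70 and 12.74 in control and 12.91 and 12.84 in depleted cells (0.16, adjusted p = 0.72), as was Eif3i at 12.50 and 12.60 against 12.66 and 12.68 (0.12). The other probe set of Eif3i, whose name has no _s_at, _x_at or _a_at suffix, differed by -0.020. Eif3e was at 13.20 and 13.15 against 13.02 and 13.18 (-0.073), which overlapped. The other 5, Eif3b, Eif3h, Eif3k, Eif3l and Eif3m, lay between -0.13 and 0.048 with overlapping groups. The probe sets shared by Eif3j1 and Eif3j2, whose products anchor eIF3 to the ribosome, were all negative, at -0.31, -0.30 and -0.19.

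The eIF4 group, which binds the cap and unwinds the mRNA leader, had 5 of 9 genes negative and a median of -0.049. Eif4e, the cap-binding protein, was at 11.65 and 11.16 in control and 10.70 and 11.42 in depleted cells. The groups overlapped, the 2 arrays of low spike-in difference lay above the 2 of high difference, and the difference of -0.35 (SE 0.33, adjusted p = 0.80 in limma) became 0.018 without Myc-depleted 1. On this probe set Eif4e differed by -0.23 between the arrays of low spike-in difference and by -0.46 between those of high difference. The next brightest probe set of Eif4e was at 10.23 and 10.13 against 10.24 and 10.18, a difference of 0.030. Its 4 tested probe sets reached from -0.35 to 0.37, so that no lower level of Eif4e was resolved. Eif4e2, a cap-binding repressor, was at 10.84 and 11.26 against 11.06 and 10.79 (-0.13), with overlapping groups and probe sets from -0.18 to 0.32. Eif4e3, the most divergent paralog, was at 6.71 and 7.41 against 7.29 and 7.65 (0.41, SE 0.30, adjusted p = 0.72), and the high value rests on control 1, since against control 2 Myc-depleted 1 differed by -0.12. The helicase Eif4a1 was at 12.69 and 12.72 against 12.59 and 12.60 and its paralog Eif4a2 at 12.13 and 12.05 against 12.02 and 12.06. Their differences on these probe sets were -0.11 and -0.049, and the groups were separated for Eif4a1 but overlapped for Eif4a2. The 3 tested probe sets of Eif4a1 reached from -0.78 to -0.11, so the size of its difference depended on the probe set. The helicase cofactor Eif4b was at 12.31 and 12.50 against 12.54 and 12.41 (0.068) and its relative Eif4h at 12.78 and 12.76 against 12.83 and 12.81 (0.047). Eif4h was higher with separated groups on this probe set, and its 6 probe sets reached from -0.31 to 0.047. Eif4g2, a scaffold relative that lacks the eIF4E contact, was at 13.31 and 13.34 against 13.24 and 13.29 (-0.064). The scaffold Eif4g3 was at 10.20 and 10.61 against 10.86 and 10.25 (0.15), with overlapping groups. Eif4g1 is not analysed here.

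The proteins that hold eIF4E in an inactive state stood on opposite sides. Eif4ebp1, whose product releases eIF4E once the kinase mTORC1 phosphorylates it, was at 10.76 and 11.09 in control and 10.72 and 10.53 in depleted cells (-0.30, SE 0.17, adjusted p = 0.65 in limma). Eif4ebp2, of the same function, was at 9.16 and 9.37 against 9.71 and 9.48 (0.33, SE 0.15, adjusted p = 0.58). The groups did not overlap for either gene, although those of Eif4ebp1 nearly touched, and neither interval excluded 0 (-0.78 to 0.18 and -0.10 to 0.76). All 4 tested probe sets of Eif4ebp2 were positive, from 0.25 to 0.33. Those of Eif4ebp1 were at -0.30, -0.45 and 0.0028. Eif4enif1, which carries eIF4E into the nucleus, differed by -0.17 with separated groups.

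**Figure D4:**
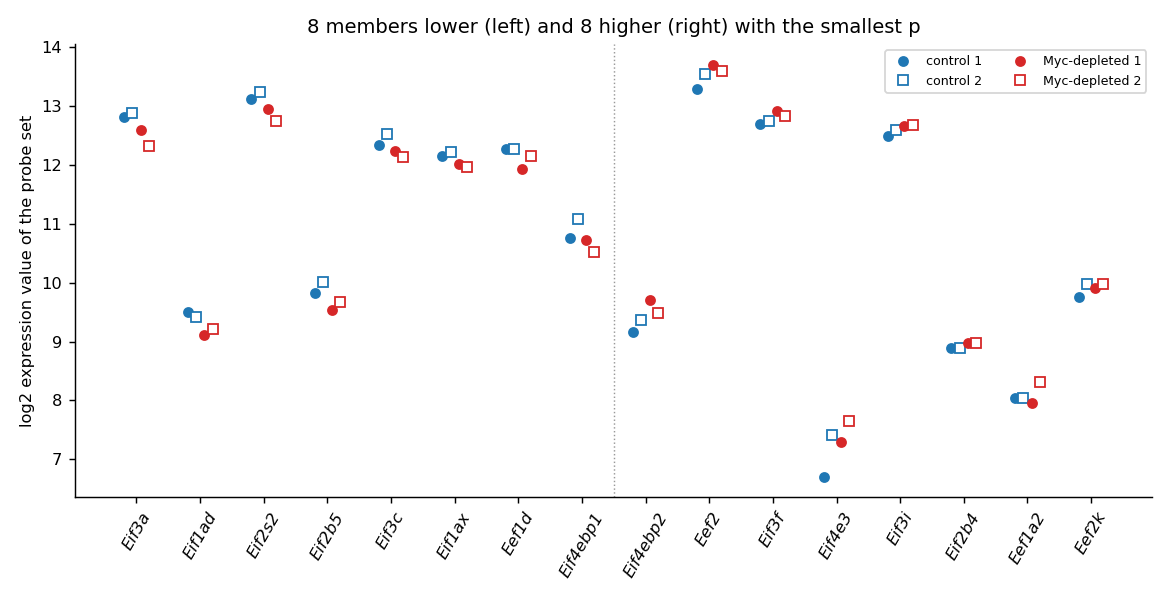
Log2 expression value (vertical axis) on each of the 4 arrays, control in blue and Myc-depleted in red, circles for arrays numbered 1 and squares for those numbered 2, of the 8 members with a negative and the 8 with a positive difference that had the smallest unadjusted p. The arrays of both groups lie within 1 log2 unit of each other for each gene, as with Eif3a at 12.82 and 12.88 against 12.60 and 12.32 and Eif4ebp2 at 9.16 and 9.37 against 9.71 and 9.48.

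Eif5, the activator of GTP hydrolysis by eIF2, showed how far the choice of probe set matters. Its brightest probe set was at 11.41 and 11.81 in control and 11.71 and 11.10 in depleted cells, which overlapped (-0.20, adjusted p = 0.88 in limma). The next was at 11.53 and 11.55 against 11.01 and 10.99 (-0.54, SE 0.11, unadjusted p = 0.0075, adjusted p = 0.36). The other 3 differed by -0.39, -0.55 and -0.72, so that on 4 of 5 probe sets both depleted arrays lay below both controls. Of all probe sets tested 18.5% were so. The probe sets of Eif5 read the same 4 arrays and are not independent of each other.

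Further initiation factors had a dimmer probe set with a larger difference. A probe set of Eif3a other than the brightest was at 10.89 and 10.72 against 10.02 and 10.13, with a difference of -0.73 (SE 0.13, unadjusted p = 0.0049, adjusted p = 0.34 in limma). The dimmest tested probe set of Eif3a was at 8.94 and 8.44 against 7.24 and 8.22 (-0.97, SE 0.40, adjusted p = 0.54 in limma). A second probe set of Eif5b, the GTPase of subunit joining, was at 10.07 and 10.05 against 9.62 and 9.54 (-0.48, unadjusted p = 0.013, adjusted p = 0.39), while its brightest was at 10.28 and 10.54 against 10.52 and 9.80. In Eif5b and Eif5 alike the brightest probe set was lowest on Myc-depleted 2 and overlapped between groups.

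With a covariate for the spike-in difference, in place of none, 11 of 51 genes were lower (13.3% of all genes) and 1 higher (15.7% of all) at an unadjusted p under 0.05 in limma, and 0 passed adjustment. This fit leaves 1 residual degree of freedom, and it called 3224 of all probe sets where the fit without the covariate called 0.

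Over all probe sets of the members, 80 of 125 were negative, with a median of -0.090. In limma 0 had an adjusted p under 0.05 (smallest 0.34). At an unadjusted p under 0.05, 8 were lower (6.4%), where 4.46% of the 27022 probe sets tested were, and 0 were higher, where 5.63% were. The 8 were 4 of Eif5, 1 each of Eif3a, Eif5b and Eif2s2, and 1 shared by Eif3j1 and Eif3j2, with differences from -0.73 to -0.31, and none of them stands for its gene. They were singled out after their values were seen, and 6.4% is near the background share. Both depleted arrays lay below both controls for 41 of 125 (18.5% of all probe sets) and above them for 13 (22.5% of all). Of 33 genes with several tested probe sets, 17 had probe sets of both signs, and the range within a gene had a median of 0.25.

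**Figure D5:**
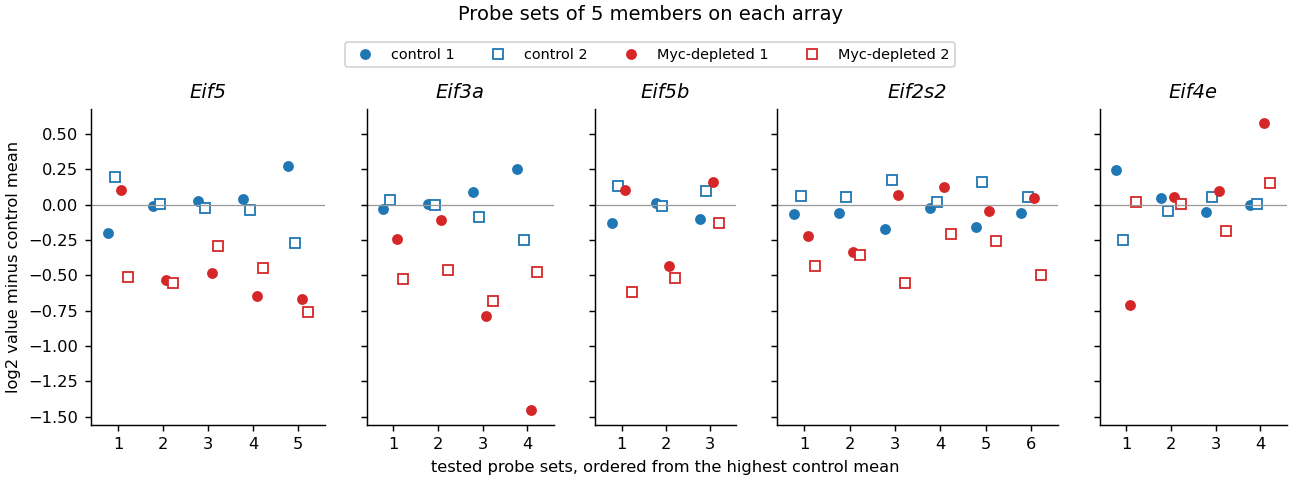
Log2 value minus the control mean of the same probe set (vertical axis) on each of the 4 arrays for every tested probe set of Eif5, Eif3a, Eif5b, Eif2s2 and Eif4e (horizontal axis, numbered from the highest control mean), control in blue and Myc-depleted in red. On probe sets 2 to 5 of Eif5 both red points lie below both blue points, on its brightest they overlap, and the red points of Eif4e scatter on both sides of 0.

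Among the late factors, Eif5a, the carrier of the modified lysine hypusine that helps stalled ribosomes on, was at 13.13 and 13.09 in control and 12.76 and 13.04 in depleted cells (-0.21, SE 0.15, adjusted p = 0.71 in limma). Its paralog Eif5a2 was at 7.34 and 7.55 against 7.55 and 7.44 (0.048), and a second probe set of it differed by -0.28. On the brightest probe sets the groups did not overlap for Eif5a and did for Eif5a2. The other tested probe set of Eif5a differed by -0.52. Eif6, which keeps the large subunit free until it is needed, was at 10.99 and 11.00 against 10.78 and 10.89 (-0.16).

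Elongation factor genes were mixed in sign. Eef2, the translocase, was higher on both depleted arrays, at 13.29 and 13.55 in control and 13.71 and 13.60 in depleted cells (0.23, SE 0.15, adjusted p = 0.68 in limma), although Myc-depleted 2 lay just above the higher control. Eef1a1, the tRNA carrier, was at 14.57 and 14.54 against 14.61 and 14.57 (0.037), and Eef1b2, its exchange factor, at 13.78 and 13.81 against 13.82 and 13.86 (0.049). Eef1a1 lay next to the largest value on these arrays, where saturation of the signal was not tested, so no lack of change is read from it. Eef1a2, the isoform of muscle and nerve, was at 8.05 and 8.04 against 7.96 and 8.31 (0.092), with overlapping groups. Eef1d, another exchange subunit, was at 12.27 on each control array and at 11.93 and 12.15 on the depleted arrays (-0.24, SE 0.13, adjusted p = 0.64). Eef1e1, a component of the tRNA synthetase complex in spite of its name, was at 10.43 and 10.30 against 9.70 and 10.32, so its difference of -0.36 rests on Myc-depleted 1. Of the enzymes that modify elongation factors, the kinase Eef2k, which inhibits eEF2, was at 9.77 and 9.98 against 9.92 and 9.98 (0.076). The methyltransferases Eef1aknmt and Eef1akmt1 differed by -0.21 and -0.11 with separated groups, and Eef1akmt2 and Eef2kmt by -0.0061 and 0.029. A second tested probe set of Eef1aknmt differed by 0.046, and the other tested ones of Eef1akmt1 reached from -0.11 to 0.13, all with overlapping groups.

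Of 9 pairs of related members with values for both genes, 4 had opposite signs, namely Eif4ebp1 and Eif4ebp2, Eif4e and Eif4e3, Eif5a and Eif5a2, and Eef1d and Eef1b2. No test of a difference between paralogs was made.

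Other genes of translation had a smaller negative median, whose sign depended on the arrays compared. Of 49 tested genes in 6 lists of partners and regulators, 30 were negative (61.2%, against 46.0% of all genes) with a median of -0.034 against 0.022 over all genes. Their median was 0.0079 between the arrays of low spike-in difference and -0.058 between those of high difference. Both depleted arrays lay below both controls for 10 genes (20.4%, against 20.8% of all genes) and above both for 14 (28.6%, against 26.6%). In limma 0 had an adjusted p under 0.05. At an unadjusted p under 0.05 in limma, 2 were lower (4.08%, against 5.23% of all genes) and 4 higher (8.16%, against 6.96%). All of these shares of separated or called genes were near the background. In termination and recycling the recycling ATPase Abce1 was at 11.42 and 11.49 against 11.10 and 10.79 (-0.51, unadjusted p = 0.031), with the release factors Gspt1 at -0.29 and Gspt2 at 0.48. Bzw2, an eIF5 mimic, was at 9.81 and 9.86 against 9.28 and 9.29 (-0.55, unadjusted p = 0.0075, adjusted p = 0.36), the lowest difference in these lists. In the same list of 7 genes, 6 were negative, and the hypusine-forming enzyme Dohh differed by 0.27. Of the mTORC1 genes Tsc1, an inhibitor of the kinase, was at 7.92 and 8.02 against 8.52 and 8.33 (0.45, unadjusted p = 0.026), and 4 of 11 were higher with separated groups (36.4%, against 26.6% of all genes) and 0 lower (20.8% of all), counts too small to read against the background. Among partners of the cap complex the eIF4E kinase Mknk2 differed by 0.40, and the abundant poly(A)-binding protein Pabpc1 by -0.034. Of 8 mitochondrial factors 4 were negative, with the release factor Mtrf1l at 0.63 (unadjusted p = 0.0074) and the initiation factor Mtif3 at 0.49. The 6 genes of the eIF2 kinases and the phosphatase that opposes them lay between -0.36 and 0.10, 5 of them negative, and for none of them were the groups separated. All of these adjusted p values were 0.36 or higher.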

How the data were processed

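Messenger RNA of 4 cultured BASC samples was hybridized to single-colour arrays. Values deposited by the authors are in log2 units and were made in Partek software, by Robust Multichip Average according to the methods, while the submitters' processing notes name Partek 6.4 and GCRMA. Which of these was used was not settled. Array medians were 5.48 to 5.49. Precision is limited by having 2 arrays per group. The 64 control probe sets were left out, and symbols came from the platform annotation. limma 3.58.1 (lmFit and eBayes, R 4.3.3) was fitted over 27022 probe sets, with Benjamini-Hochberg adjustment over all of them, 2 residual degrees of freedom and a prior of 2.02. The fit was tested on simulated data. The methods name an ANOVA, here run per probe set with group as its factor and called the methods' ANOVA. The comparison used no replicate block. Members, roles, paralog pairs and lists were chosen with earlier results of these data known. Named genes were the 8 lower and 8 higher members with the smallest unadjusted p, all members of the paralog pairs and the brightest member of each role. Other members are named to account for each of them, and of the other translation genes up to 3 per list with the smallest p, beside a few added for their role. Protein sequences were not used here. Alternatives changed the filter, the scaling, the floor, the variance trend, the test or the choice of probe set, added a spike-in covariate or a replicate block, or left out 1 array.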

Additional observations from a re-analysis of the deposited data

How the results depend on the processing

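In limma and in the methods' ANOVA, 0 members had an adjusted p under 0.05 under every alternative run, and the median stayed negative. It was -0.049 with the mean of all probe sets of a gene and -0.12 to -0.071 with 1 array left out. With only probe sets whose names have no _s_at, _x_at or _a_at suffix, the median was -0.080. Members lower at an unadjusted p under 0.05, 0 as reported, numbered 2 with no filter (4.65% of all genes), 3 with a variance trend (5.53%), 3 in the methods' ANOVA (4.84%), 2 with probe set means (6.32%), 11 with the spike-in covariate (13.3%) and 0 to 2 with 1 array left out (1.45% to 5.93%). Members higher numbered 1 in the methods' ANOVA (6.59% of all genes) and 1 with the covariate (15.7%). Across the array 0 probe sets passed adjustment as reported, 3224 with the covariate and 21 with the crossed block described below, while with probe set means 22 genes did. Genes lower with separated groups, 19 as reported, numbered 11 of 40 without suffixed probe sets (27.5%, against 20.8% of all genes) and 24 to 31 with 1 array left out, where 30.5% to 36.8% of all genes were so. Genes higher with separated groups, 8 as reported, numbered 8 without control 1, 15 without control 2, 14 without Myc-depleted 1 and 10 without Myc-depleted 2, where 36.9% to 42.9% of all genes were so. With 1 array left out, the lone array of a group is assumed to vary like the other group.

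The replicate block gave a median of -0.11 and 0 members lower or higher at an unadjusted p under 0.05. The labels do not say what the numbers share, and deviations of same-numbered arrays correlated at -0.77 over probe sets. The spike-in values pair the arrays in the same crossed way, and the cause was not tested. Under a crossed replicate block, chosen after seeing the data, 6 members were lower (9.70% of all genes) and 1 higher (12.1%) at an unadjusted p under 0.05, and 0 passed adjustment.

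Of 32 genes named by rule, 20 had the reported sign in all alternatives that tested them. With probe set means the sign turned for Eif1ax (0.023), Eif4e (0.0022), Eif4e2 (0.0071), Eif4g2 (0.020), Eif4h (-0.035) and Eif5a2 (-0.12). Without suffixed probe sets it turned for Eif1ax (0.058), Eif3i (-0.020), Eif4e2 (0.32) and Eif4h (-0.051). With 1 array left out, values ranged from -0.033 (without control 1) to 0.18 for Eef2k, from -0.027 (without control 1) to 0.16 for Eif4b, from -0.057 (without control 1) to 0.15 for Eif5a2, from -0.15 (without Myc-depleted 1) to 0.46 for Eif4g3, from -0.081 (without Myc-depleted 2) to 0.26 for Eef1a2, from -0.15 to 0.0075 (without Myc-depleted 1) for Eif3e, from -0.71 to 0.018 (without Myc-depleted 1) for Eif4e and from -0.34 to 0.085 (without control 2) for Eif4e2. The cause was not tested.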
